A study of Homo sapiens with 9 samples.

Results

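The heat-shock chaperones described here are HSPA1A, HSPA1B, HSPA8, HSPH1, DNAJB1, HSP90AA1, HSP90AB1, HSPD1, HSPE1 and HSPB1. They were found by gene name in the deposited table, which holds 36785 genes, and all 10 were present and passed the filter on low counts. The RNA came from SKOV3 cells, a human ovarian cancer line. All cells had been transduced with lentivirus. The groups are sh1, labelled as STXBP6 knockdown 1, sh3, labelled as STXBP6 knockdown 3, and shNC, labelled NC, with 3 libraries each. STXBP6 codes for a syntaxin-binding protein of vesicle fusion, and the study asked what its knockdown does to expression in these cells. Nothing in the labels ties a library to its own culture or transduction, so the p-values below reflect only how far these libraries spread, and that spread may be technical.

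The libraries held 57654447 to 69264400 counts. STXBP6, the gene named in the labels, had 7, 4 and 26 counts in sh1 libraries, 20, 31 and 18 in sh3 libraries and 4, 0 and 15 in shNC libraries. The sh3 values all lay above the shNC values, which goes against the knockdown label of sh3, and the sh1 values overlapped those of shNC. The counts are few, and neither sh1 nor sh3 lay below shNC, so sh1, sh3 and shNC below mean the libraries so labelled and no direction is read as an effect of less STXBP6. Mitochondrial genes took 4.52% to 4.61% of the counts in sh1 libraries, 3.63% to 3.93% in sh3 libraries and 3.97% to 4.58% in shNC libraries. Of 11 epithelial and ovarian cancer cell markers, 8 averaged at least 1 FPKM (fragments scaled by gene length and library size) in every group. WT1, CDH1 and MUC16 stayed below 1 FPKM in every library. The summed level of the 11 was 720 to 749 FPKM in sh1 libraries and 1145 to 1189 FPKM in sh3 libraries. In shNC libraries it was 1123 to 1229 FPKM, so sh1 lay below both other groups without overlap. ERBB2 supplied most, at 485 to 520 FPKM in sh1, 831 to 877 FPKM in sh3 and 836 to 953 FPKM in shNC. PAX8, KRT18 and KRT19 were also lower in sh1 than in both other groups, while KRT7 was higher. The KRT8 ranges of sh1 and shNC overlapped. The sh3 libraries also departed from shNC, with lower PAX8, MUC1 and EPCAM and higher KRT8 and KRT18, each without overlap. The leukocyte markers summed to 10.4 to 11.3 FPKM in sh1, 17.6 to 18.7 FPKM in sh3 and 13.7 to 15.0 FPKM in shNC libraries, with PTPRC at or near 0 and CD68 as the only 1 of 6 in the table that averaged at least 1 FPKM in each group. Endothelial markers summed to 0.978 to 1.16 FPKM in sh1, 2.73 to 2.93 FPKM in sh3 and 1.96 to 2.21 FPKM in shNC libraries, with 1 of 6 averaging at least 1 FPKM in each group. CDH5, VWF and PECAM1, which define endothelial cells, were near 0 in every library. Fibroblast markers summed to 17.8 to 18.4 FPKM in sh1, 11.6 to 12.4 FPKM in sh3 and 14.8 to 18.6 FPKM in shNC libraries, with 3 of 7 markers averaging at least 1 FPKM in sh1, 2 in sh3 and 3 in shNC. Mesothelial markers summed to 8.99 to 9.56 FPKM in sh1, 10.3 to 11.5 FPKM in sh3 and 16.5 to 23.7 FPKM in shNC libraries, with 4 of 5 averaging at least 1 FPKM in sh1, 3 in sh3 and 3 in shNC. These sums move with the groups, and their part in the chaperone values was not tested. Markers within a list also moved in opposite directions. In sh1 against shNC libraries COL1A1 was higher and LUM lower, and LRRN4 was higher and MSLN lower. In bulk RNA, fewer cells of a kind and less RNA per cell cannot be told apart.

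Heat-shock proteins are chaperones that bind unfolded or partly folded proteins. HSP70 proteins, fed by J-domain proteins such as DNAJB1 and reset by exchange factors such as HSPH1, hold short exposed stretches of new or damaged proteins, and HSP90 dimers take over late-folding clients such as kinases and steroid receptors. In mitochondria HSPD1 forms a folding chamber that HSPE1 closes, and HSPB1 is a small heat-shock protein that holds unfolded proteins without using ATP. The transcription factor HSF1 switches on many of these genes under stress by binding inverted repeats of the bases GAA, and some members, such as HSPA8 and HSP90AB1, are also made at high levels in unstressed cells.

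The windows around the transcription starts of the members are shown because the inverted GAA repeat is the sequence through which heat-shock factors are known to act, and members with and without a difference between groups both carry it. RefSeq promoter windows on GRCh38.p14 run from 250 bases before to 50 bases after a start, and 16 windows matched the 10 members. A paired element was defined as GAANNTTC or TTCNNGAA (each its own reverse complement), and a triple element as GAANNTTCNNGAA or TTCNNGAANNTTC, the same pattern on either strand, which contains 2 overlapping paired elements. A paired element was found in 9 of the 16 windows, covering 8 of the 10 members, and in 13.5% of all 35116 windows of this length. That share is per window, and some members have several windows, so it is no background for the count of members. A triple element was found in 4 of the 16 windows, those of HSPA8, HSP90AA1, HSP90AB1 and HSPD1 printed here, and in 0.49% of all windows. The windows of HSPH1 and HSPE1 held neither in these 300 bases. The HSPH1 window, chr13:31162339-31162638, does not contain the start of the gene model given below, at 31162039. The bases around that start were not examined. A match describes the letters only, and no binding was measured. HSP90AA1, HSP90AB1, HSPD1 and DNAJB1 have several windows, at alternative starts, and the printed one was picked because it holds elements. Each of them also has a window without a paired element. The printed windows of HSP90AA1, HSP90AB1, HSPA8, HSPD1 and DNAJB1 lie inside the gene models given below. That of HSPA1A contains the start of its gene model. In the following windows, read 5′ to 3′ on the strand of the gene, capitals mark the paired elements.
HSP90AA1 (chr14:102086995-102087294, minus strand): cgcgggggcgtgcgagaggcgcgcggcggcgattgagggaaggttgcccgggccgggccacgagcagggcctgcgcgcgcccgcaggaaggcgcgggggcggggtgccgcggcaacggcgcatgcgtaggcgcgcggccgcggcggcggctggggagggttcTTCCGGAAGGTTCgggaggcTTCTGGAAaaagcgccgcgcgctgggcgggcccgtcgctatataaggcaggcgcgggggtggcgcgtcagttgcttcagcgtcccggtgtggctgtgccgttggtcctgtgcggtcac
HSP90AB1 (chr6:44247693-44247992, plus strand): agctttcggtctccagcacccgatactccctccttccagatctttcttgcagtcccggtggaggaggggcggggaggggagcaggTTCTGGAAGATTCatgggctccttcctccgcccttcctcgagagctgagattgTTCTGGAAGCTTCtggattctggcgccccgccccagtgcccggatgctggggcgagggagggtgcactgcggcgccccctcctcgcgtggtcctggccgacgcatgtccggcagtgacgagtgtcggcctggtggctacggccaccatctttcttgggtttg
HSPA8 (chr11:123062087-123062386, minus strand): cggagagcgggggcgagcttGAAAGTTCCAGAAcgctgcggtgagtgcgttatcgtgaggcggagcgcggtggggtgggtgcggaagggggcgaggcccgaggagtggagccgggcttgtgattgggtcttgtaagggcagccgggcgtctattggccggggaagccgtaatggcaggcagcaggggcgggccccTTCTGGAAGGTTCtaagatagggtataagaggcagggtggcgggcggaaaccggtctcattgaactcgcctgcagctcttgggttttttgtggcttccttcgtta
HSPD1 (chr2:197499791-197500090, minus strand): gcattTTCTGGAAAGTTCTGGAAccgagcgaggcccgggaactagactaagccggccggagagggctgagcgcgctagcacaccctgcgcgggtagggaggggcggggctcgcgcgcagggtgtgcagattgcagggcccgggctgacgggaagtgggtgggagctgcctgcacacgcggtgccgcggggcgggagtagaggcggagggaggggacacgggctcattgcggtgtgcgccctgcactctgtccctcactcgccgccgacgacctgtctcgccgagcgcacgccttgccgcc
HSPA1A (chr6:31815293-31815592, plus strand): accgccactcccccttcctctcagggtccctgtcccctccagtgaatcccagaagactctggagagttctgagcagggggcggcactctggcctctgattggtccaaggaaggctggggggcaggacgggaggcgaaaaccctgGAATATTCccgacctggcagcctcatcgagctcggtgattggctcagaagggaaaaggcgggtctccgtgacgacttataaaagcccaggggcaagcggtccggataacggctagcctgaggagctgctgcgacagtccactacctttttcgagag
DNAJB1 (chr19:14518348-14518647, minus strand): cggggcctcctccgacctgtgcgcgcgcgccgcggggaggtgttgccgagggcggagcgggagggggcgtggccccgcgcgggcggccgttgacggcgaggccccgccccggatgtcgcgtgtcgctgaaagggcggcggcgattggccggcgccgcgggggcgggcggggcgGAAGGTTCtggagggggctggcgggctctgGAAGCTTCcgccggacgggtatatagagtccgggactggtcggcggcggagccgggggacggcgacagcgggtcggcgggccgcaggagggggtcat

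Of the 10 chaperones, 7 were higher in cells labelled sh1 than in cells labelled shNC and none was lower (edgeR quasi-likelihood test, Benjamini-Hochberg adjusted p under 0.05 over 21296 genes). Of all genes tested, 38.7% were called, 19.9% higher and 18.8% lower, and of the genes averaging at least 10 FPKM, as all 10 members do, 68.9% were called and 44.7% were higher. Calls on well-expressed genes were therefore common, and the count of 7 is to be read against that. With sh3 the same 7 were higher than in shNC cells and none was lower, against 26.9% of all genes called and 14.4% higher, and 54% called and 36.9% higher of genes averaging at least 10 FPKM. The 7 were HSP90AA1, HSP90AB1, HSPA8, HSPH1, HSPD1, HSPE1 and HSPB1, and HSPA1A, HSPA1B and DNAJB1 were called with neither hairpin. Being higher in both comparisons held for 10.6% of all genes tested and for 29% of those averaging at least 10 FPKM. Both comparisons use the same 3 shNC libraries, so their results are not independent. The median log2 fold change of the 10 was 0.27 with sh1 and 0.23 with sh3, where the median over all genes tested was -0.02 and -0.01, and over genes averaging at least 10 FPKM it was 0.09 and 0.06. All 3 values lay above all 3 shNC values for 7 members with sh1, as for 24.6% of all genes, and for 6 members with sh3, as for 20.8% of all genes.

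**Figure D1:**
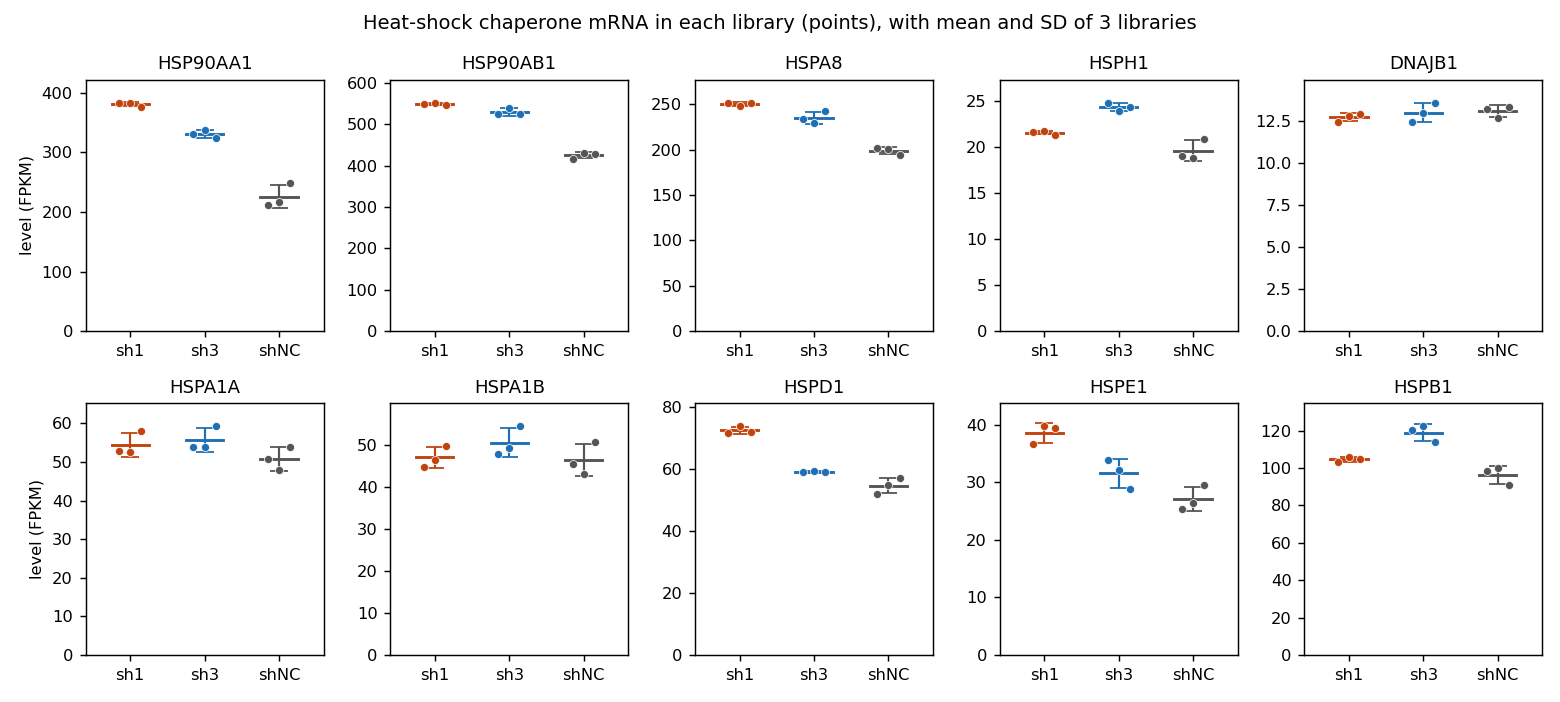
Level of each chaperone in FPKM, from 0 on each vertical axis, in the 3 libraries (points) of sh1, sh3 and shNC cells, with the mean (line) and SD (bar). HSP90AA1 is at 377 to 384 FPKM in sh1 cells, 325 to 337 FPKM in sh3 cells and 212 to 249 FPKM in shNC cells, while the DNAJB1 values of the 3 groups overlap.

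The 10 chaperones together took 1532 ± 4.75 FPKM in sh1 libraries, 1448 ± 10.1 FPKM in sh3 libraries and 1158 ± 26.2 FPKM in shNC libraries (SD, n = 3 each). This was 0.645%, 0.618% and 0.498% of all FPKM in sh1, sh3 and shNC libraries. HSP90AB1 was the most abundant, at 35.8% of the summed level in sh1, 36.6% in sh3 and 36.7% in shNC. HSP90AA1 supplied 24.9% in sh1, 22.8% in sh3 and 19.5% in shNC. By mean FPKM over the 9 libraries HSP90AB1 ranked 36 among all genes, HSP90AA1 56, HSPA8 76, HSPB1 215, HSPD1 494, HSPA1A 580, HSPA1B 683, HSPE1 1155, HSPH1 1862 and DNAJB1 3371. In shNC libraries the ranges of neighbours in this order did not overlap, except HSPD1 with HSPA1A and HSPA1A with HSPA1B.

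HSP90AA1, the stress-inducible cytosolic HSP90, showed the largest difference of the 10 with sh1 and with sh3 (ENSG00000080824, chr14:102080742-102139699, minus strand, GRCh38). It measured 383, 384 and 377 FPKM in sh1 cells, 331, 337 and 325 FPKM in sh3 cells and 212, 217 and 249 FPKM in shNC cells. All sh1 values were above all sh3 values, which were above all shNC values, and within shNC the third library stood above the others. The log2 fold change was 0.79 ± 0.051 with sh1 (SE, adjusted p = 2.38e-07), a fold of 1.72, and 0.55 ± 0.050 with sh3 (adjusted p = 1.06e-05), a fold of 1.47. Leaving out that shNC library gave 0.86 with sh1 and 0.63 with sh3. HSP90AB1, the constitutive cytosolic HSP90 (ENSG00000096384, chr6:44246166-44253888, plus strand), measured 549, 552 and 545 FPKM in sh1 cells, 524, 540.1 and 525 FPKM in sh3 cells and 417, 431 and 427 FPKM in shNC cells. The 3 groups did not overlap, with a narrow gap between sh1 and sh3. The log2 fold change was 0.40 ± 0.025 with sh1 (adjusted p = 1.72e-07) and 0.32 ± 0.025 with sh3 (adjusted p = 2.78e-06). Processed copies of these genes took at most 0.736% of the HSP90AA1 counts and 0.56% of the HSP90AB1 counts, and the pseudogene HSP90AA2P, summed with HSP90AA1, left the log2 fold changes at 0.79 and 0.55.

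HSPA8, the constitutive HSC70 that folds new proteins and strips clathrin from vesicles (ENSG00000109971, chr11:123057489-123063230, minus strand), measured 252, 248 and 252 FPKM in sh1 cells, 233, 229 and 242 FPKM in sh3 cells and 201, 201 and 195 FPKM in shNC cells. All sh1 values lay above all sh3 values and all sh3 values above all shNC values. It differed from shNC by a log2 fold change of 0.36 ± 0.026 with sh1 (adjusted p = 5.98e-07) and 0.24 ± 0.026 with sh3 (adjusted p = 3.71e-05). HSPA1A and HSPA1B, the stress-inducible HSP70 pair on chromosome 6, did not pass the test. HSPA1A (ENSG00000204389, chr6:31815543-31817946, plus strand) measured 52.8, 52.5 and 57.9 FPKM in sh1 cells, 54.0, 53.9 and 59.2 FPKM in sh3 cells and 50.7, 47.8 and 54.0 FPKM in shNC cells, and the groups overlapped. The intervals given for members that did not pass are not adjusted for the number of genes. The log2 fold change of HSPA1A was 0.13 ± 0.056 with sh1 (adjusted p = 0.0854, 95% interval 0.01 to 0.25) and 0.13 ± 0.056 with sh3 (adjusted p = 0.1, 95% interval 0.01 to 0.26). It was called with each hairpin in 3 of 17 alternatives, among them the fit without shNC replicate 3, with log2 fold changes of 0.18 and 0.18 (adjusted p = 0.0213 with sh1 and 0.0272 with sh3). HSPA1B (ENSG00000204388, chr6:31827738-31830254, plus strand) measured 44.7, 46.4 and 49.7 FPKM in sh1 cells, 47.8, 49.2 and 54.3 FPKM in sh3 cells and 45.5, 42.9 and 50.5 FPKM in shNC cells, and its groups overlapped as well. Its log2 fold change was 0.05 ± 0.065 with sh1 (adjusted p = 0.583, 95% interval -0.09 to 0.19) and 0.12 ± 0.065 with sh3 (adjusted p = 0.194, 95% interval -0.02 to 0.27). Without shNC replicate 3 it was called with sh3, at 0.19 (adjusted p = 0.0285). Its value rested on single libraries: with sh1 it was 0.0022 without shNC replicate 2, 0.0091 without sh1 replicate 3, 0.094 without sh1 replicate 1 and 0.12 without shNC replicate 3, none of them called. With sh3 it was 0.075 without shNC replicate 2 and 0.077 without sh3 replicate 3. HSPA1A with sh1 was 0.083 without sh1 replicate 3. The promoter windows of these near-identical genes, aligned without gaps, are identical at 277 of 299 bases, and reads of the coding parts may be split between them. With their counts summed the log2 fold change was 0.09 with sh1 (edgeR adjusted p = 0.247) and 0.13 with sh3 (adjusted p = 0.133).

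HSPH1, the HSP110 protein that exchanges nucleotides on HSP70 (ENSG00000120694, chr13:31134973-31162039, minus strand), measured 21.7, 21.7 and 21.3 FPKM in sh1 cells, 24.8, 23.9 and 24.4 FPKM in sh3 cells and 19.0, 18.9 and 20.9 FPKM in shNC cells. All sh1 and all sh3 values were above all shNC values, and all sh3 values were above all sh1 values. Against shNC cells the fit gave a log2 fold change of 0.17 ± 0.040 with sh1 (adjusted p = 0.00444) and 0.32 ± 0.040 with sh3 (adjusted p = 0.000106). DNAJB1, the J-domain protein that hands clients to HSP70 (ENSG00000132002, chr19:14514769-14560262, minus strand), measured 12.4, 12.8 and 12.9 FPKM in sh1 cells, 12.4, 12.9 and 13.6 FPKM in sh3 cells and 13.2, 12.6 and 13.3 FPKM in shNC cells. The groups overlapped, and the log2 fold change was -0.01 ± 0.037 with sh1 (adjusted p = 0.886, 95% interval -0.09 to 0.07) and -0.01 ± 0.037 with sh3 (adjusted p = 0.917, 95% interval -0.09 to 0.07). Its gene model overlaps TECR on the opposite strand over 43178 bases of the whole spans. Use of the strand mark in counting is not stated, so some reads may be counted for the wrong gene. How far the exons of the 2 genes overlap was not examined.

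HSPD1, the mitochondrial chaperonin HSP60 (ENSG00000144381, chr2:197486584-197500274, minus strand), measured 71.5, 73.7 and 71.8 FPKM in sh1 cells, 59.0, 59.4 and 58.9 FPKM in sh3 cells and 52.0, 54.7 and 57.1 FPKM in shNC cells. All sh1 values were above all sh3 values and all sh3 values above all shNC values, the last by a narrow gap. The fitted log2 fold change was 0.44 ± 0.034 with sh1 (adjusted p = 1.18e-06) and 0.12 ± 0.034 with sh3 (adjusted p = 0.0262). HSPE1, its HSP10 lid (ENSG00000115541, chr2:197500140-197503449, plus strand), measured 36.7, 39.8 and 39.4 FPKM in sh1 cells, 33.8, 32.1 and 28.8 FPKM in sh3 cells and 25.4, 26.4 and 29.5 FPKM in shNC cells. The sh1 values lay above the other groups, and the lowest sh3 value lay below the highest shNC value. Relative to shNC cells the log2 fold change was 0.54 ± 0.072 with sh1 (adjusted p = 7.92e-05) and 0.22 ± 0.072 with sh3 (adjusted p = 0.0379). The sh3 calls are not stable. HSPD1 was called in 11 and HSPE1 in 8 of 17 alternatives, with adjusted p up to 0.0901 for HSPD1 without shNC replicate 1 and up to 0.15 for HSPE1 without sh3 replicate 1. HSPD1 was also lost without sh3 replicate 1 or 2 and without shNC replicate 2, and HSPE1 without sh1 replicate 3, without sh3 replicate 2 and without shNC replicate 1 or 2. The 2 genes start head to head, their models overlap by 135 bases on opposite strands, and the window of HSPE1 shares 204 bases with the first HSPD1 window.

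HSPB1, the small heat-shock protein HSP27 (ENSG00000106211, chr7:76302673-76304292, plus strand), measured 103, 106 and 105 FPKM in sh1 cells, 121, 122 and 114 FPKM in sh3 cells and 98.6, 99.8 and 90.9 FPKM in shNC cells. All sh3 values were above all sh1 values and all sh1 values above all shNC values. It differed from shNC by a log2 fold change of 0.15 ± 0.041 with sh1 (adjusted p = 0.0116) and 0.30 ± 0.041 with sh3 (adjusted p = 0.000186).

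**Figure D2:**
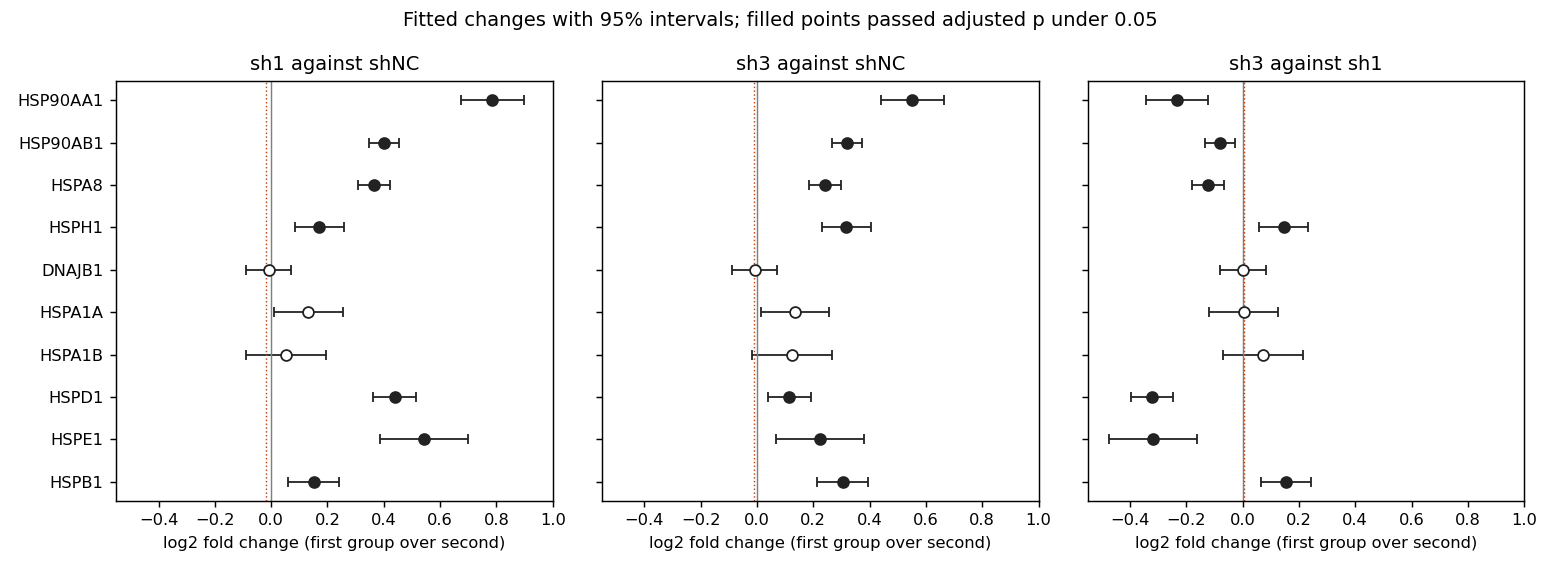
Fitted log2 fold change of each chaperone with its 95% interval (bars) for sh1 against shNC, sh3 against shNC and sh3 against sh1. Filled points passed an adjusted p under 0.05, the solid grey line is at 0 and the dotted line is the median over all genes tested. The 7 filled members are higher in the first 2 panels, and in the last panel HSPH1 and HSPB1 lie to the right of 0 while the other 5 filled members lie to the left.

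Between the hairpins, 7 of the 10 chaperones were called in sh3 against sh1, 2 higher and 5 lower. The shNC libraries are not one of the sides here, but they enter the filter, the scaling and the shared spread of the fit. Over all genes tested 25.9% were called, 12.9% higher and 13% lower, and over genes averaging at least 10 FPKM 49.5% were called. HSPH1 and HSPB1 were higher in sh3 cells, with log2 fold changes of 0.15 ± 0.039 (edgeR adjusted p = 0.0177) and 0.15 ± 0.041 (edgeR adjusted p = 0.0163). HSPD1 and HSPE1 were lower in sh3 cells, at -0.32 ± 0.034 (adjusted p = 3.8e-05) and -0.32 ± 0.071 (adjusted p = 0.00614). HSP90AA1 was lower at -0.23 ± 0.050 (adjusted p = 0.00496), HSPA8 at -0.12 ± 0.026 (adjusted p = 0.00475) and HSP90AB1 at -0.08 ± 0.025 (adjusted p = 0.0317). HSPA1A, HSPA1B and DNAJB1 had log2 fold changes of 0.00 ± 0.056, 0.07 ± 0.065 and 0.00 ± 0.037 and did not pass. The calls of HSP90AB1, HSPH1 and HSPB1 held in 8, 13 and 14 of 17 alternatives. HSP90AB1 was lost without any 1 of the sh1 libraries and without sh3 replicate 1 or 3 (adjusted p up to 0.132), HSPH1 without any 1 of the sh1 libraries and without sh3 replicate 1 (adjusted p up to 0.076), and HSPB1 without sh1 replicate 1 and without sh3 replicate 1 or 2 (adjusted p up to 0.0752). Without sh1 replicate 1 or without sh3 replicate 1 the count of called members was 4.

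Levels within one library do not depend on how libraries are scaled to each other, and 5 ratios were compared over 3 contrasts, 15 tests in all, with an exact two-sided permutation test of 3 against 3 that cannot give less than 0.1. The ratio of inducible to constitutive HSP90, HSP90AA1 to HSP90AB1, averaged 0.694 ± 0.00344 in sh1, 0.625 ± 0.00673 in sh3 and 0.532 ± 0.0442 in shNC libraries (SD, n = 3 each). Per library it was 0.698, 0.695 and 0.691 in sh1, 0.632, 0.624 and 0.618 in sh3 and 0.508, 0.504 and 0.583 in shNC. The groups did not overlap in any of the 3 contrasts, with an exact p of 0.1 in each (0.15 adjusted over 15). The ratio of HSPA1A plus HSPA1B to HSPA8 averaged 0.405 in sh1, 0.452 in sh3 and 0.489 in shNC libraries, with sh1 below shNC and sh1 below sh3 without overlap (exact p = 0.1), and sh3 overlapping shNC (exact p = 0.2). DNAJB1 to HSPA8 averaged 0.0507 in sh1, 0.0553 in sh3 and 0.0657 in shNC libraries, and the groups did not overlap (exact p = 0.1). DNAJB1 itself gave a log2 fold change of -0.01 with each hairpin, so this ratio mostly restates the change of HSPA8. The ratios to HSPA8 share that denominator and are not independent. HSPH1 to HSPA8 averaged 0.0861 in sh1, 0.104 in sh3 and 0.0986 in shNC libraries. The sh1 values were below both other groups (exact p = 0.1), and sh3 overlapped shNC (exact p = 0.4). HSPD1 to HSPE1, chaperonin to lid, averaged 1.88 in sh1, 1.88 in sh3 and 2.02 in shNC libraries, with overlap in all contrasts (exact p = 0.2, 0.2 and 1).

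**Figure D3:**
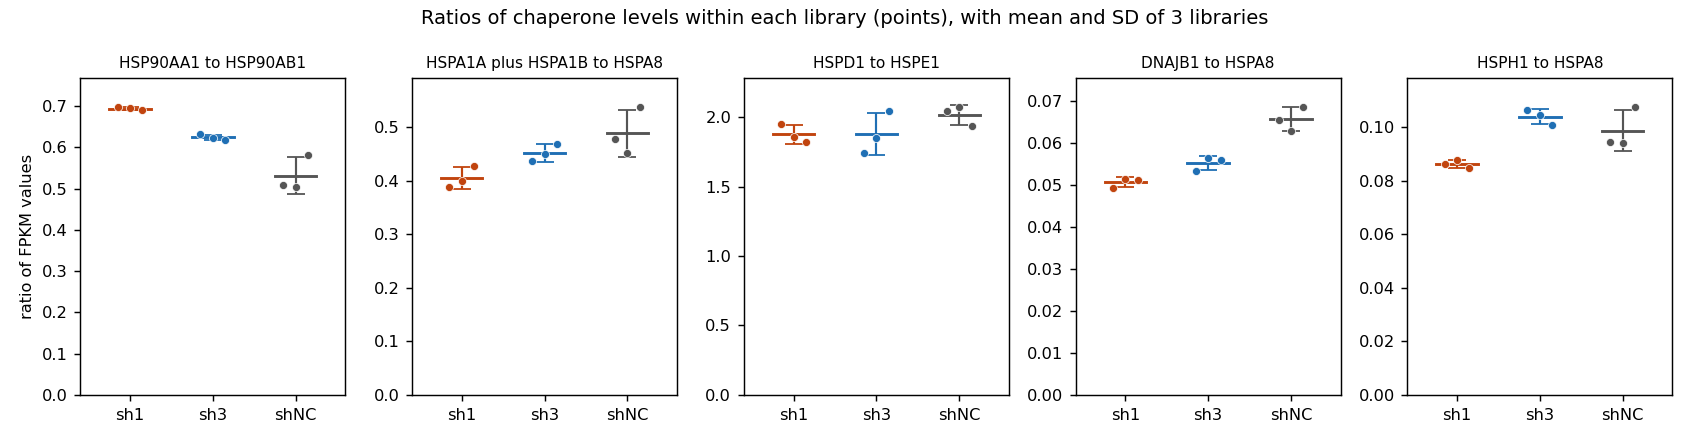
Ratio of FPKM values between chaperones within each library (points) in sh1, sh3 and shNC cells, with the mean (line) and SD (bar) of 3 libraries and each axis starting at 0. HSP90AA1 to HSP90AB1 is at 0.694 in sh1, 0.625 in sh3 and 0.532 in shNC cells on average, and HSPD1 to HSPE1 overlaps between the groups.

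Across the 9 libraries the members did not vary alike. With the mean of the other 9, centred on the log2 CPM scale, HSP90AA1 had a Pearson r of 0.98, HSP90AB1 0.97, HSPA8 0.94, HSPE1 0.85, HSPD1 0.79, HSPA1A 0.72, HSPH1 0.72, HSPB1 0.57, HSPA1B 0.44 and DNAJB1 -0.02. The libraries fall into 3 groups and share their depth, so these values describe the 9 libraries only and carry no test. Among the 45 pairs r was highest for HSP90AA1 with HSP90AB1 (0.98), HSPA8 with HSP90AB1 (0.96), HSPD1 with HSPE1 (0.96) and HSPA8 with HSP90AA1 (0.95), and HSPA1A with HSPA1B had 0.90. Among 7009 other genes averaging at least 5 FPKM, the profiles most like the mean of the members were those of SKA3, a spindle attachment protein (r = 0.996), HJURP, the CENP-A chaperone, TUBB4B, a beta-tubulin, SRXN1, a sulfiredoxin, RAN, a nuclear transport GTPase, PRKCSH, a glucosidase subunit, AURKB, a mitotic kinase, and SMC4, a condensin subunit (r = 0.992). Their log2 fold changes lay between 0.45 for RAN and 1.12 for HJURP with sh1, and between 0.34 for RAN and 0.83 for HJURP with sh3.

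The partner and regulator genes of the chaperones were followed in 10 lists holding 181 genes, of which 175 were in the table. The lists overlap, so their counts are not independent of each other. For example, CRYAB, DNAJA1, DNAJB6 and HSPA4L are among the other heat-shock factor targets and also in another list. STIP1 is in the lists of HSP70 exchange factors and of HSP90 cochaperones. The counts are calls by the same fit. Of all genes, 19.9% were called higher and 18.8% lower with sh1, and 14.4% higher and 12.4% lower with sh3. Of genes averaging at least 10 FPKM, 44.7% were higher with sh1 and 36.9% with sh3. Many listed genes are expressed at that level, and for them the second background is the nearer one. No list was tested for an excess. Of 12 heat-shock factors and regulators, 5 were higher and 2 lower with sh1, and 4 were higher and 2 lower with sh3, with medians of 0.04 and -0.00. HSF1, the main heat-shock transcription factor, was higher, at 0.24 ± 0.043 with sh1 (adjusted p = 0.00071) and 0.23 ± 0.043 with sh3 (adjusted p = 0.00174), at 21.5 FPKM in sh1, 21.8 FPKM in sh3 and 18.6 FPKM in shNC cells. HSBP1, which binds HSF1 and dampens it, was lower, at -0.52 with sh1 (adjusted p = 1.77e-06) and -0.17 with sh3 (adjusted p = 0.011), at 7.45, 9.67 and 10.9 FPKM in sh1, sh3 and shNC cells.

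Of 31 other known heat-shock factor targets, 16 were higher and 5 lower with sh1 and 13 were higher and 5 lower with sh3, with medians of 0.23 and 0.19. CRYAB, alpha B-crystallin, was higher, at 0.99 with sh1 (adjusted p = 1.52e-05) and 0.70 with sh3 (adjusted p = 0.000437), at 3.21 FPKM in sh1, 2.68 FPKM in sh3 and 1.64 FPKM in shNC cells. SLC5A3, the inositol transporter, was lower, at -2.09 with sh1 (adjusted p = 4.76e-08) and -1.40 with sh3 (adjusted p = 2.29e-06). BAG3, a well-known stress target, was not called, at -0.00 with sh1 and 0.03 with sh3, with 28.8 FPKM in sh1, 30.1 FPKM in sh3 and 29.4 FPKM in shNC cells. HSPA6, an HSP70 gene strictly induced by stress, was near the detection limit, at 0.136 FPKM in sh1, 0.109 FPKM in sh3 and 0.0786 FPKM in shNC cells.

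Of 31 members of the HSP90 family and their cochaperones, 21 were higher and 4 lower with sh1 and 14 were higher and 3 lower with sh3, with medians of 0.25 and 0.12. STIP1, which links HSP70 to HSP90, was higher, at 0.45 with sh1 (adjusted p = 1.64e-07) and 0.32 with sh3 (adjusted p = 5.85e-06), with 65.3, 61.2 and 48.9 FPKM in sh1, sh3 and shNC cells. FKBP8, an immunophilin of mitochondria, was lower, at -0.34 and -0.16 with sh1 and sh3 (adjusted p = 7.91e-06 and 0.0035). Of 18 TRiC chaperonin and prefoldin subunits, which fold actin and tubulin, 14 were higher and none lower with sh1 and 10 were higher and none lower with sh3, with medians of 0.28 and 0.17. CCT5 was higher, at 0.49 with sh1 (adjusted p = 5.92e-07) and 0.32 with sh3 (adjusted p = 3.75e-05).

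Of 12 other HSP70 and HSP110 proteins, 6 were higher and 1 lower with sh1, whereas 1 was higher and 3 were lower with sh3, with medians of 0.28 and -0.07. In sh3 against sh1, 7 of the 12 were lower and none was higher, where of all genes tested 13% were lower and 12.9% higher. HSPA5, the BiP chaperone of the endoplasmic reticulum, was lower with sh1 at -0.33 (adjusted p = 6.97e-05) and with sh3 at -0.22 (adjusted p = 0.00223). HSPA9, the mitochondrial HSP70, was higher with sh1 at 0.32 (adjusted p = 6.52e-06), and in sh3 cells it gave 0.05 (adjusted p = 0.252). HSPA14 was higher with sh1 at 0.56 (adjusted p = 0.000116) and with sh3 at 0.25 (adjusted p = 0.0327). Of 42 J-domain proteins, 14 were higher and 6 lower with sh1 and 6 were higher and 4 lower with sh3, with medians of 0.10 and 0.03. DNAJA1, a J-domain partner of cytosolic HSP70, was lower with sh1, at -0.49 (adjusted p = 5e-06), and gave 0.12 with sh3 (adjusted p = 0.066), and sh3 against sh1 gave 0.62 (adjusted p = 2.26e-06).

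Of 16 HSP70 exchange factors and cochaperones, 7 were higher and 2 lower with sh1 and 5 were higher and 2 lower with sh3, with medians of 0.11 and 0.12. Of 23 mitochondrial chaperones and proteases, 7 were higher and 2 lower with sh1 and 5 were higher and none lower with sh3, with medians of 0.09 and 0.06. TIMM44, which anchors HSPA9 at the import channel, was higher, at 0.64 and 0.39 (adjusted p = 1.5e-05 and 0.0012). TRAP1, the mitochondrial HSP90, was higher with sh1 at 0.33 (adjusted p = 4.99e-06) and gave 0.02 with sh3 (adjusted p = 0.772). Of the 5 other small heat-shock proteins tested, 2 were higher with sh1 and 1 with sh3, and none was lower. The medians, 0.20 with sh1 and 0.70 with sh3, are the values of HSPB11 and of CRYAB. HSPB2, HSPB6 and HSPB8 were near the detection limit, with group means of at most 0.323 FPKM, and were not called against shNC. Of 7 kinases and phosphatases of HSPB1, 3 were higher and 2 lower with sh1 and 3 were higher and none lower with sh3. MAPKAPK2, a kinase in this list, was higher, at 0.25 and 0.16 (edgeR adjusted p = 6.03e-05 and 0.00287). The 2 that were lower with sh1 were MAPKAPK3, at -0.28 (adjusted p = 0.000751), and PRKD1, at -0.39 (adjusted p = 0.00313). With sh3 they gave -0.13 and -0.18 (adjusted p = 0.0649 and 0.152). The medians of these 7 were 0.16 and 0.15.

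**Figure D4:**
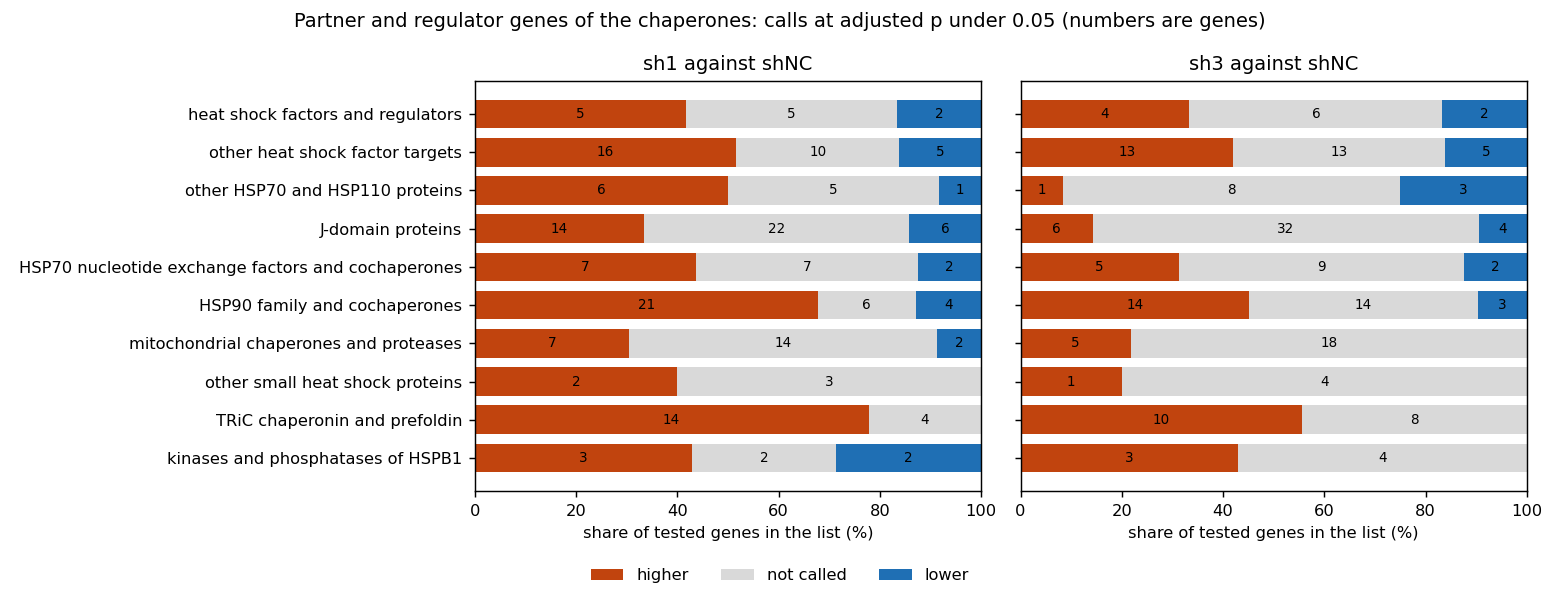
Share of the tested genes in each partner or regulator list that was higher, not called or lower at an adjusted p under 0.05, for sh1 against shNC and sh3 against shNC, with the numbers of genes in the bars. TRiC chaperonin and prefoldin has 14 of 18 genes higher with sh1 and 10 of 18 with sh3, and none lower.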

How the data were processed

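Polyadenylated RNA was made into strand-marked paired-end Illumina libraries, per the labels' protocols. The deposited table gives each gene a raw, whole-number count in every library. FPKM values, which divide by library size and gene length, were deposited beside the counts, as named in the file headers. The submitters' processing notes name cutadapt 1.9, HISAT2 2.2.1, StringTie 2.1.6, DESeq2, edgeR and GRCh38, without their roles. Whether strand entered the counting was not given in the sources used here.

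Counts were tested with edgeR 4.0.16 in R 4.3.3 (filterByExpr, minimum count 10, TMM, glmQLFit, glmQLFTest), fitting 1 mean for each group to the 9 libraries together, with Benjamini-Hochberg adjustment over the 21296 genes tested, two-sided. The standard error was the absolute log2 fold change divided by the square root of F. Ratios used FPKM, with an exact permutation test. The members' own counts ran from 3366 to 145876 per library. No pair of replicates came within sampling noise (chi-square over degrees of freedom of 8.51 to 17.3), so each library counts as 1. The highest values, 15.6 and 17.3, were those of shNC replicate 3 with the other shNC libraries. All other pairs lay between 8.51 and 10.3, so shNC replicate 3 stood apart over all genes. Without it, 9 members and 5925 genes were called with sh3 against shNC.

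The members, lists and tests were chosen with earlier results of these data known. All 10 members are named; from each list up to 3 called genes per direction and comparison with the largest change at a mean of at least 1 FPKM could be named. BAG3, HSPA6, HSPA9, TRAP1, HSPB2, HSPB6 and HSPB8 lie outside that rule and were named after their values were seen. The background of genes averaging at least 10 FPKM, the motifs and the printed windows, and the summing of near-identical copies were also chosen after seeing the data. The test was tried on simulated counts. A first version, with changed genes drawn down to low counts, recovered fewer of them than the bar set for it; the genes were then drawn at higher counts, nearer those of the members, and the bar was changed to recovery of the larger changes, which it passed. The self-test therefore speaks for well-counted genes only. Those larger changes exceeded the largest log2 fold change of any member, 0.79 for HSP90AA1 with sh1. Passing the bar therefore says nothing about recovery of changes of the members' size.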

Additional observations from a re-analysis of the deposited data

Results flagged for a closer look

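The levels of 7 chaperones differed between cells labelled sh3 and cells labelled sh1 (edgeR adjusted p under 0.05). In this comparison 25.9% of all genes tested were called, and 49.5% of those averaging at least 10 FPKM. The shNC libraries enter this fit through the filter, the scaling and the shared spread. In log2 units, sh3 minus sh1, HSPH1 gave 0.15 and HSPB1 0.15, so both were higher in sh3 cells. HSPD1 gave -0.32, HSPE1 -0.32, HSP90AA1 -0.23, HSPA8 -0.12 and HSP90AB1 -0.081, so these were lower in sh3 cells. All 7 were also called higher than in shNC cells with each hairpin. For HSPH1, HSPB1, HSP90AA1, HSPA8 and HSP90AB1 the difference between sh3 and sh1, where it holds, lies in the size of that change. The sh3 against sh1 calls of HSP90AB1, HSPH1 and HSPB1 held in only 8, 13 and 14 of 17 alternatives. The sh3 calls of HSPD1 and HSPE1 against shNC held in only 11 and 8 of 17 alternatives. For them, a smaller change with sh3 cannot be told from no change with sh3. Hairpin and culture cannot be told apart.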

How the results depend on the processing

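In sh3 against sh1 the count of called members, 7, was 4 without sh1 replicate 1 and 4 without sh3 replicate 1, and 4 to 7 over all libraries left out in turn. Over the same refits it was 7 to 8 with sh1 and 5 to 9 with sh3 against shNC, and the count of all genes called was 7195 to 8194, 4690 to 5925 and 4312 to 5996 for sh1 against shNC, sh3 against shNC and sh3 against sh1. Some values near 0 that were never called changed sign. DNAJB1 ran from -0.030 to 0.014 with sh1, -0.031 to 0.019 with sh3 and -0.025 to 0.025 between hairpins over the libraries left out, gave 0.00061 with sh3 without the filter, and -0.00018 between hairpins with DESeq2. HSPA1A ran from -0.036 to 0.055 between hairpins. HSPA1B kept its sign between hairpins but ran from 0.022 to 0.118 over the libraries left out. The HSPD1 to HSPE1 ratio ran from -0.062 to 0.052 on the log2 scale between hairpins. The cause was not tested. Over all genes, replicate numbers did not pair the libraries (correlations of deviations from -0.122 to 0.044). For HSPA1A, HSPA1B and DNAJB1, however, replicate 3 had the highest FPKM of its group in sh1, in sh3 and in shNC. Why was not tested. With a replicate block 7951, 5446 and 5125 genes and 8, 8 and 7 members were called in the same comparisons; HSPA1A passed with both hairpins and HSPA1B with sh3 (adjusted p = 0.00636, 0.00848 and 0.0265), and HSPE1 with sh3 did not (adjusted p = 0.0665). Scaling by library totals shifted the median of all genes by -0.04 with sh1 and left 3712 genes higher and 4499 lower with sh1, 2683 and 3047 with sh3, against 4230 and 4013, and 3072 and 2647, with TMM. It ended the sh3 calls of HSPD1 (adjusted p = 0.0697) and HSPE1 (adjusted p = 0.0599) and the sh3 against sh1 call of HSP90AB1 (adjusted p = 0.0501), which limma on FPKM (adjusted p = 0.122 and 0.129 with a pseudocount of 0.1 and 1) and no filter (adjusted p = 0.0704) ended too. Depth did not limit the members, but HSPA6 and STXBP6 lay near the detection limit.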
